A study of Homo sapiens with 16 samples.

Results

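The genes described here are 10 regulators and markers of the epithelial-mesenchymal transition: SNAI1, SNAI2, ZEB1, ZEB2, TWIST1, VIM, CDH1, CDH2, KRT8 and KRT18. They were matched by gene name, and all 10 were among the 58735 genes counted in each cell line. The libraries were poly-A RNA sequencing libraries of SUM159PT and MDA-MB-231, which are established human lines from triple-negative breast cancers. Cells of each line, which the labels give as wild type, received, by lipofection, a guide RNA against YES1 (sgYES1) or a non-targeting guide (sgNTS) and were collected 48 h later. The 4 groups were SUM159PT with sgYES1, SUM159PT with sgNTS, MDA-MB-231 with sgYES1 and MDA-MB-231 with sgNTS, with 4 libraries each and 16 libraries in all. The submitters call the replicates technical, so the p-values below measure the spread between these libraries, which may not include that between separate cultures. The sources used here do not name the protein that acts with the guide. YES1 is a kinase related to SRC, and the study asked what its loss does in cells of this cancer type.

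In the epithelial-mesenchymal transition, epithelial cells lose their contacts with neighbouring cells and take on the shape and motility of mesenchymal cells. The zinc-finger proteins SNAI1 and SNAI2, the zinc-finger homeobox proteins ZEB1 and ZEB2 and the basic helix-loop-helix protein TWIST1 are transcription factors that repress epithelial genes such as CDH1. CDH1 (E-cadherin) holds epithelial cells together, CDH2 (N-cadherin) and the intermediate filament protein VIM (vimentin) are widely used mesenchymal markers, and KRT8 and KRT18 are the keratin partners of simple epithelia.

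The set did not move as a block. With sgYES1, SNAI1 was higher in both lines, by 2.70-fold in SUM159PT and 4.22-fold in MDA-MB-231, while ZEB1 and VIM fell in both lines by 1.16-fold to 1.28-fold. KRT8 and KRT18 rose in SUM159PT and fell in MDA-MB-231. The rise of KRT18 was small (1.08-fold), and its call was lost under 6 of 13 alternatives. Of the other regulators, SNAI2 and ZEB2 rose by 1.13-fold and 1.22-fold in MDA-MB-231 and did not pass the test in SUM159PT. CDH1 was at or near the detection limit in all 16 libraries, and TWIST1 had no count in any MDA-MB-231 library.

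Libraries held 14352042 to 20884267 counts in SUM159PT and 17156454 to 25124164 in MDA-MB-231, and the biological coefficient of variation was 5.66% and 5.85%. YES1, the targeted gene, had 40.18, 40, 39.03 and 38.32 CPM (counts scaled to library size) in SUM159PT sgYES1 libraries, against 97.9, 93.8, 90.6 and 89.4 CPM in SUM159PT sgNTS libraries. In MDA-MB-231 it had 41.6, 42.9, 44.3 and 43.7 CPM with sgYES1, against 107, 110, 107 and 113 CPM with sgNTS. YES1 mRNA was thus lower in every sgYES1 library, by log2 fold changes of -1.24 in SUM159PT and -1.34 in MDA-MB-231. PGR, the progesterone receptor gene, had no count in any group, and ESR1, the estrogen receptor gene, had at most 17 counts in any group. ERBB2, the HER2 receptor gene, averaged 95.5 and 99.5 CPM with sgYES1 in SUM159PT and MDA-MB-231, against 108 and 109 CPM with sgNTS, and was called lower in both lines (log2 fold changes -0.18 and -0.13, adjusted p 0.0059 and 0.0178, edgeR). MDA-MB-231 sgNTS replicate 4 stood apart from its group (chi-square per degree of freedom against the other 3 libraries up to 29.1). Without it, the same number of genes of the set, 7, passed the test in MDA-MB-231, and the log2 fold change of SNAI1 there was 2.03.

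CPM values here are scaled within a line by the trimmed mean of M-values (TMM). A log2 fold change is that of sgYES1 over sgNTS with its standard error (SE), from the quasi-likelihood test of edgeR. A gene was called where its p, adjusted by the Benjamini-Hochberg method over all genes tested, was under 0.05. In SUM159PT, 6 of the 9 tested genes of the set were called, 3 higher and 3 lower, against 39.4% of 14479 genes tested in that line (19.6% higher and 19.7% lower). In MDA-MB-231, 7 of the 8 tested genes were called, 3 higher and 4 lower, against 42.8% of 15427 genes (20.8% higher and 22.1% lower). With library totals as the only scaling, the calls over all genes in MDA-MB-231 divided into 3956 higher and 2661 lower, against 3205 and 3402 with TMM. The median log2 fold change was -0.03 over the tested genes of the set and -0.01 over all genes in SUM159PT, and it was -0.01 and 0.01 in MDA-MB-231. CDH1 did not pass the filter on low counts in either line, and TWIST1 did not in MDA-MB-231. SNAI1, ZEB1 and VIM were called in both lines with the same sign, and KRT8 and KRT18 with the opposite sign. How many of all genes were called in both lines was not counted, so this only describes the genes. The rise of SNAI1 in both lines was known beforehand.

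**Figure D1:**
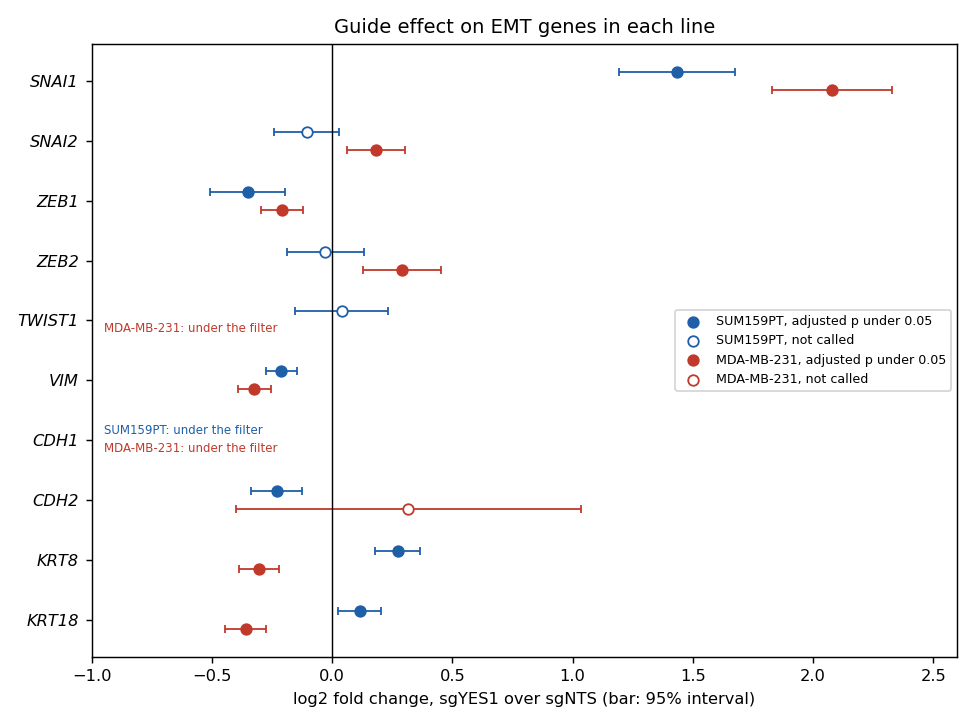
Log2 fold change of sgYES1 over sgNTS (x axis) for the 10 genes, in SUM159PT (blue, upper point of each pair) and MDA-MB-231 (red, lower point), with 95% intervals. Filled points passed an adjusted p of 0.05 and open points did not. SNAI1 lies at 1.43 and 2.08, VIM and ZEB1 lie below 0 in both lines, and the keratins lie on opposite sides of 0.

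Among the regulators tested, SNAI1 had the largest difference. It lies at chr20:49982999-49988886 on the plus strand (hg38). Its level was 11.9, 12.6, 14.6 and 12.3 CPM in SUM159PT sgYES1 libraries, against 4.35, 5.23, 5.35 and 4.16 CPM in SUM159PT sgNTS libraries. It was 13.9, 11.3, 12.2 and 10.7 CPM in MDA-MB-231 sgYES1 libraries, against 2.91, 2.65, 3.27 and 2.57 CPM in MDA-MB-231 sgNTS libraries. In both lines the lowest sgYES1 library lay above 10 CPM and the highest sgNTS library below 6 CPM, so the groups were well apart. The log2 fold change was 1.43 (SE 0.116) in SUM159PT and 2.08 (SE 0.117) in MDA-MB-231. That SNAI1 rose in both lines was known when the 10 genes were put together, so these values describe the gene and support nothing further. At the 99.1th percentile of log2 fold changes over all genes in SUM159PT and the 99.5th in MDA-MB-231, SNAI1 was near the top of the genes that were higher.

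The sgYES1 ranges of SNAI1 overlapped between the lines, with means of 12.85 ± 1.20 CPM in SUM159PT and 12.03 ± 1.39 CPM in MDA-MB-231 (SD, n = 4 each). The sgNTS levels were 4.77 ± 0.604 and 2.85 ± 0.316 CPM. The guide effect on SNAI1 was thus smaller in SUM159PT: the difference of the log2 fold changes, SUM159PT minus MDA-MB-231, was -0.65 (SE 0.171, adjusted p 0.00605, edgeR over 16 libraries).

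**Figure D2:**
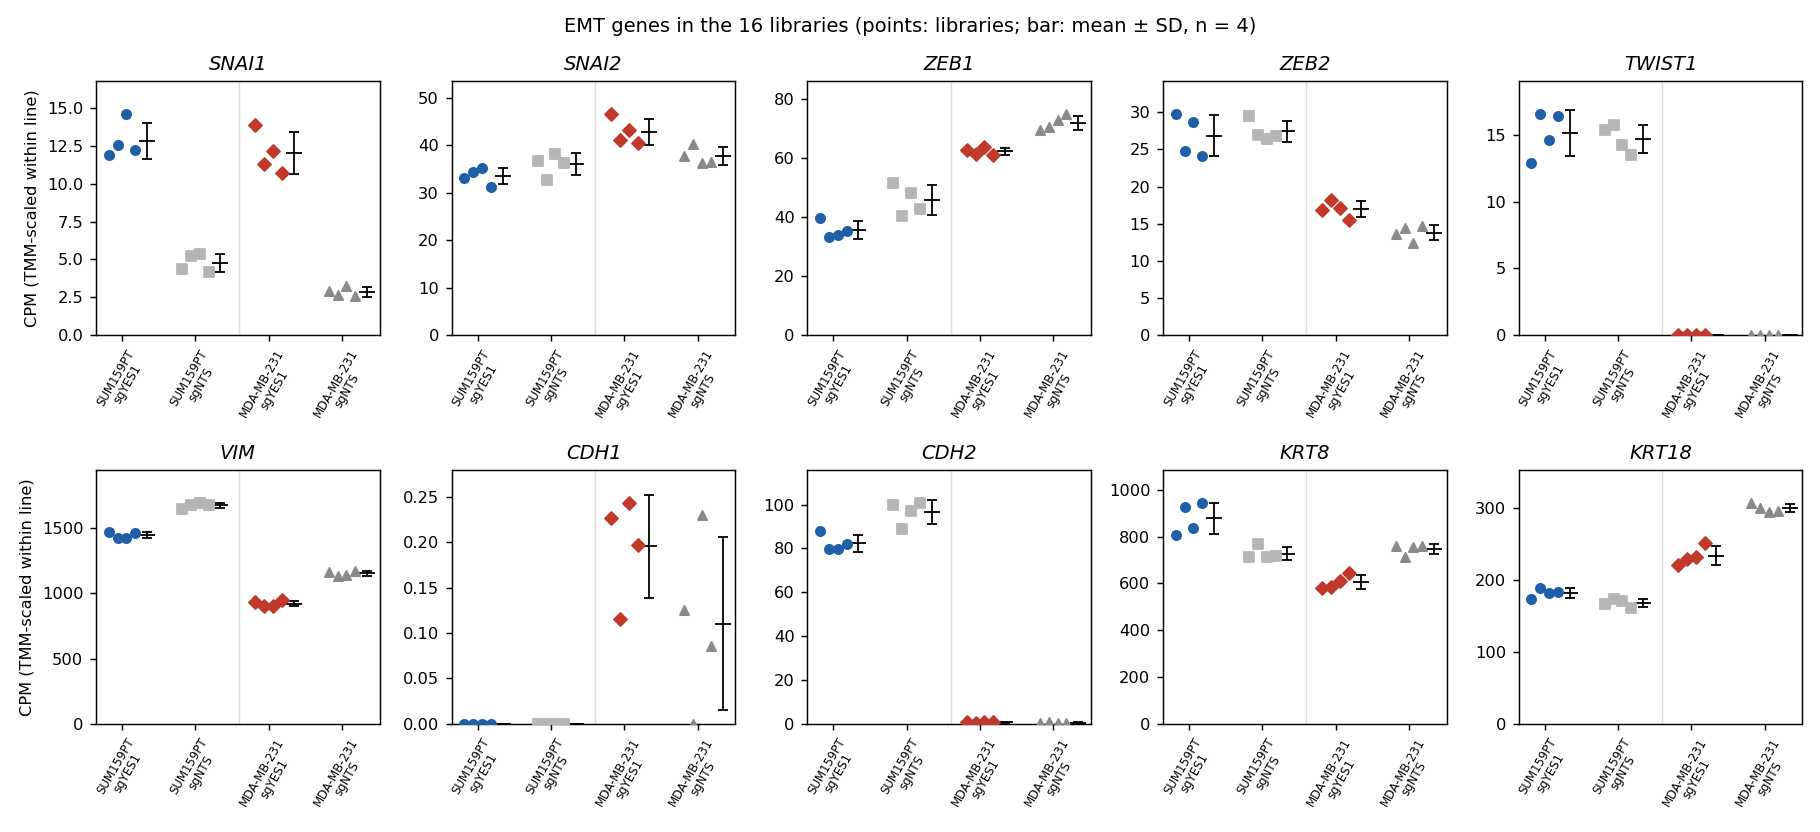
CPM (y axis, TMM-scaled within line, starting at 0) of each gene in each of the 16 libraries, with SUM159PT on the left and MDA-MB-231 on the right of each panel. Points are libraries and bars are the mean ± SD of 4. SNAI1 is above 10 CPM in each sgYES1 library and below 6 CPM in each sgNTS library, and TWIST1 and CDH2 stand near 0 in MDA-MB-231.

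SNAI2, a close relative of SNAI1, rose slightly in MDA-MB-231 and did not pass the test in SUM159PT. It had 33.1, 34.3, 35.1 and 31.2 CPM in SUM159PT sgYES1 libraries, against 36.7, 32.7, 38.2 and 36.3 CPM with sgNTS. It had 46.5, 41.0, 43.1 and 40.4 CPM in MDA-MB-231 sgYES1 libraries, against 37.7, 40.3, 36.3 and 36.4 CPM with sgNTS. The groups overlapped in SUM159PT and were apart by less than 0.1 CPM in MDA-MB-231. The log2 fold change was -0.11 in SUM159PT (95% interval -0.24 to 0.03, adjusted p 0.202) and 0.18 in MDA-MB-231 (SE 0.0561, adjusted p 0.0176, edgeR). The MDA-MB-231 call was lost without sgNTS replicate 3 (adjusted p 0.0564) or without sgYES1 replicate 1 (adjusted p 0.0651). The difference of the guide effects was -0.30 (SE 0.0859, adjusted p 0.012), and it did not pass without MDA-MB-231 sgNTS replicate 3 or without SUM159PT sgNTS replicate 1 or 3 (adjusted p 0.0528 to 0.0598).

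ZEB1 (chr10:31318495-31529814, plus strand) fell in both lines. In SUM159PT it had 39.75, 33.27, 34.01 and 35.25 CPM with sgYES1, against 51.4, 40.2, 48.1 and 42.8 CPM with sgNTS. For MDA-MB-231 the values were 62.8, 61.1, 63.7 and 61.0 CPM with sgYES1, against 69.4, 70.6, 72.7 and 74.8 CPM with sgNTS. The groups did not overlap in either line, although the SUM159PT groups came within 1 CPM of each other. The log2 fold change was -0.35 (SE 0.0747, adjusted p 0.000738) in SUM159PT and -0.21 (SE 0.0407, adjusted p 0.000839) in MDA-MB-231. The difference between the lines was -0.15 (95% interval -0.33 to 0.03, adjusted p 0.221, edgeR) and did not pass the test. An antisense gene, ZEB1-AS1, overlaps ZEB1 and held 27.4% as many counts as ZEB1 in SUM159PT and 8.10% as many in MDA-MB-231. ZEB1-AS1 itself fell in SUM159PT (log2 fold change -0.34, adjusted p 0.0211) and had a log2 fold change of 0.14 in MDA-MB-231 (adjusted p 0.357, edgeR). The sources used here do not say whether the counting used strand, so reads of this pair may have been shared, and their part in the fall of ZEB1 was not tested.

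ZEB2, the relative of ZEB1 (chr2:144364364-144524583, minus strand), rose in MDA-MB-231. It had 29.8, 24.8, 28.7 and 24.2 CPM in SUM159PT sgYES1 libraries, against 29.5, 27.0, 26.3 and 26.9 CPM with sgNTS. It had 16.9, 18.2, 17.2 and 15.5 CPM in MDA-MB-231 sgYES1 libraries, against 13.6, 14.4, 12.5 and 14.7 CPM with sgNTS. The SUM159PT groups overlapped and the MDA-MB-231 groups did not overlap. The log2 fold change was -0.03 in SUM159PT (95% interval -0.19 to 0.13, adjusted p 0.803) and 0.29 in MDA-MB-231 (SE 0.0763, adjusted p 0.00669). The difference of the guide effects was -0.33 (SE 0.109, adjusted p 0.0286, edgeR), and this call was lost under 9 of 21 alternatives, with adjusted p up to 0.126. In MDA-MB-231, ZEB1 and ZEB2 therefore changed in opposite directions: the ZEB1 to ZEB2 ratio of counts per base of merged exon was 10.7 ± 0.688 with sgYES1 and 15.1 ± 1.20 with sgNTS (SD, n = 4 each).

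TWIST1 (chr7:19020991-19117672, minus strand) was measured in SUM159PT alone. It had 12.9, 16.5, 14.6 and 16.4 CPM with sgYES1, against 15.4, 15.7, 14.2 and 13.5 CPM with sgNTS in that line. These groups overlapped, and the log2 fold change was 0.04 (95% interval -0.16 to 0.23, adjusted p 0.772, edgeR). In MDA-MB-231 the gene had no count in 4 sgYES1 and 4 sgNTS libraries, which allows up to 0.0376 and 0.0353 CPM (3 counts over the group, counting error only).

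Of the markers, VIM (chr10:17228259-17237593, plus strand) fell in both lines. In SUM159PT it had 1469, 1428, 1424 and 1466 CPM with sgYES1, against 1649, 1677, 1694 and 1681 CPM with sgNTS. In MDA-MB-231 it had 932, 905, 903 and 947 CPM with sgYES1, against 1166, 1130, 1140 and 1175 CPM with sgNTS. All sgYES1 libraries lay below all sgNTS libraries of their line. VIM fell by 13.6% in SUM159PT (log2 fold change -0.21, SE 0.0314, adjusted p 1.74e-05) and fell by 20.1% in MDA-MB-231 (log2 fold change -0.32, SE 0.0317, adjusted p 2.07e-06, edgeR). The difference between the lines was 0.10 (SE 0.0452, adjusted p 0.108), and it passed the test under 10 of 21 alternatives, DESeq2 among them (adjusted p 0.00809). An antisense gene, VIM-AS1, held less than 1% as many counts as VIM in either line.

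Because ZEB1 and VIM fell in both lines, their promoter sequences are shown. The letters CAGGTG, an E-box that SNAI and ZEB proteins are known to bind, were searched on both strands (CACCTG on the other) in the 250 bases before each RefSeq transcript start of GRCh38.p14. Of 35116 promoters, 17.5% held the motif. Entries matched 5 of the 10 genes (ZEB1, ZEB2, VIM, CDH2 and KRT8). The motif stood before 2 of 7 ZEB1 starts and before none of the starts of ZEB2, VIM, CDH2 or KRT8. The ZEB1 stretch is chr10:31318167-31318416 and the VIM stretch chr10:17227991-17228240, both on the plus strand and read 5′ to 3′. For each gene the stretch before its most 5′ start is printed, which for ZEB1 is among the 2 of 7 starts with the motif. Capitals mark the motif, whose first base lies 57 bases before that ZEB1 start.
ZEB1: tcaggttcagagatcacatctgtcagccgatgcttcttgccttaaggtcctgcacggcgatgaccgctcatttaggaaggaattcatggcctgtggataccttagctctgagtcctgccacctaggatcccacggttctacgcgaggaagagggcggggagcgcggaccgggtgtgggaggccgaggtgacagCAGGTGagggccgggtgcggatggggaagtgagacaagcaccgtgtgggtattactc
VIM: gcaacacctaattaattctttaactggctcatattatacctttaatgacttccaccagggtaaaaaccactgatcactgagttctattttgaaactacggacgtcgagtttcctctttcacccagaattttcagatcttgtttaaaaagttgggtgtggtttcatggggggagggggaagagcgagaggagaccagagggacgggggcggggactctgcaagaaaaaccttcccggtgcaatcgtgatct
A match describes the letters in this window and does not show binding.

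The cadherins were unevenly expressed, and CDH1 was too low in both lines to show a fall. CDH1 (chr16:68737225-68835548, plus strand) had no count in any SUM159PT library, which allows up to 0.0412 CPM with sgYES1 and 0.0444 CPM with sgNTS (3 counts over the group). For MDA-MB-231 the values were 4, 2, 5 and 5 counts with sgYES1, against 3, 0, 4 and 2 counts with sgNTS. These groups overlapped at a level of a few reads per library, and a two-sided exact permutation test of log2 CPM gave p = 0.229, where 0.0286 is the smallest p that 4 against 4 libraries allow. A fall in CDH1 was not detectable at this depth. With sgYES1 the gene stayed without a count in SUM159PT and at 5 counts or fewer per library in MDA-MB-231.

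CDH2 (chr18:27950966-28177446, minus strand) fell in SUM159PT. It had 87.8, 79.7, 79.9 and 81.9 CPM in SUM159PT sgYES1 libraries, against 99.9, 88.9, 96.9 and 101 CPM with sgNTS. All sgYES1 libraries lay below all sgNTS libraries, and the log2 fold change was -0.23 (SE 0.0515, adjusted p 0.00117, edgeR). In MDA-MB-231 it had 0.849, 0.231, 0.778 and 0.826 CPM with sgYES1, against 0.541, 0.584, 0.517 and 0.557 CPM with sgNTS. With sgYES1, 3 libraries lay above the sgNTS range and replicate 2 lay below it. The log2 fold change there was 0.32 (95% interval -0.40 to 1.04, adjusted p 0.475), and without replicate 2 of sgYES1 it was 0.57 (adjusted p 0.107). An overlapping antisense gene, AC110015.1, held 18.6% as many counts as CDH2 in MDA-MB-231 and 0.128% as many in SUM159PT. The difference of the guide effects on CDH2 was -0.57 (SE 0.286, adjusted p 0.154, edgeR), and without that library it was -0.77 (adjusted p 0.0386).

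The keratin partners moved together within each line and in opposite directions between the lines. KRT8 (chr12:52897187-52949954, minus strand) had 808, 926, 839 and 945 CPM in SUM159PT sgYES1 libraries, against 714, 769, 714 and 716 CPM with sgNTS. For MDA-MB-231 the values were 581, 587, 609 and 645 CPM with sgYES1, against 758, 715, 757 and 759 CPM with sgNTS. The groups did not overlap in either line, and the sgYES1 libraries were the higher ones in SUM159PT and the lower ones in MDA-MB-231. KRT8 rose in SUM159PT (log2 fold change 0.27, SE 0.0454, adjusted p 6.34e-05) and fell in MDA-MB-231 (log2 fold change -0.30, SE 0.0387, adjusted p 2.31e-05, edgeR). The difference of the guide effects was 0.56 (SE 0.0661, adjusted p 8.12e-07).

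KRT18 (chr12:52948871-52952901, plus strand) had 173, 189, 182 and 183 CPM in SUM159PT sgYES1 libraries, against 166, 174, 171 and 161 CPM with sgNTS. In MDA-MB-231 it had 222, 230, 232 and 252 CPM with sgYES1, against 308, 301, 296 and 296 CPM with sgNTS. The SUM159PT groups overlapped in 1 library of each, and the MDA-MB-231 groups were far apart. The log2 fold change was 0.11 in SUM159PT (SE 0.0425, adjusted p 0.037) and -0.36 in MDA-MB-231 (SE 0.04, adjusted p 6.57e-06, edgeR). The SUM159PT call was lost without sgNTS replicate 1 or 4, without sgYES1 replicate 2, 3 or 4, and with no filter on low counts (adjusted p 0.0527 to 0.142). The difference of the guide effects was 0.46 (SE 0.0587, adjusted p 2.72e-06), and neither keratin lost this call under any of the 21 alternatives run. Over the 8 genes of the set in which a difference between the lines could be fitted, 5 were called, 2 higher and 3 lower in SUM159PT, against 24.5% of 16640 genes tested (12.7% higher and 11.9% lower). Over all genes that split was 2111 higher and 1974 lower. It was 2426 and 1761 with median-of-ratios size factors, and 2486 and 1378 without SUM159PT sgNTS replicate 1, the most uneven of the alternatives run.

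The gene models of KRT8 and KRT18 lie on opposite strands and share chr12:52948871-52949954, where unstranded counting could not tell their reads apart. Processed copies of both keratins are frequent in the genome: 50 KRT8 pseudogenes held 1.78% as many counts as KRT8 in SUM159PT and 1.38% in MDA-MB-231. The 67 KRT18 pseudogenes held 0.808% and 0.459% as many counts as KRT18. How reads with several matches were counted is not stated in these sources.

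The balance of mesenchymal and epithelial filament mRNA was described by ratios of levels per length (TPM, counts per base of merged exon, scaled to the same sum in each library), which do not depend on the scaling between libraries and were not tested. Merged exons can be longer than any 1 mRNA of a gene, so a ratio between genes is not one of transcript numbers. The VIM to KRT8 ratio was 2.20 ± 0.175 in SUM159PT sgYES1 libraries and 3.07 ± 0.114 in SUM159PT sgNTS libraries (SD, n = 4 each), with no overlap. It was 2.03 ± 0.0826 with sgYES1 and 2.06 ± 0.0421 with sgNTS in MDA-MB-231, where the ranges overlapped. The VIM to KRT18 ratio was 4.97 ± 0.246 with sgYES1 and 6.22 ± 0.202 with sgNTS in SUM159PT, again with no overlap, and 2.46 ± 0.118 and 2.40 ± 0.0568 in MDA-MB-231. VIM and both keratins thus fell side by side in MDA-MB-231, and the ratio shifted toward keratin in SUM159PT. The KRT8 to KRT18 ratio was 2.26 ± 0.115 with sgYES1 and 2.03 ± 0.0541 with sgNTS in SUM159PT, and 1.21 ± 0.018 and 1.17 ± 0.0416 in MDA-MB-231. The SNAI1 to SNAI2 ratio was 0.773 ± 0.0517 with sgYES1 and 0.268 ± 0.042 with sgNTS in SUM159PT, and 0.565 ± 0.028 and 0.153 ± 0.0213 in MDA-MB-231.

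Levels per length placed VIM, KRT8 and KRT18 far above the regulators. In SUM159PT sgYES1 libraries the order was VIM (1001 TPM), KRT8 (456 TPM), KRT18 (202 TPM), CDH2 (59.3 TPM), SNAI2 (35.2 TPM), SNAI1 (27.2 TPM), TWIST1 (26.5 TPM), ZEB1 (14.7 TPM) and ZEB2 (3.83 TPM). The neighbours SNAI1 and TWIST1 overlapped there, and no other neighbours did. In SUM159PT sgNTS libraries, SNAI1 (9.97 TPM) stood below TWIST1 (25.5 TPM) and ZEB1 (18.6 TPM), with no overlap. In MDA-MB-231 sgYES1 libraries the order was VIM (643 TPM), KRT8 (316 TPM), KRT18 (261 TPM), SNAI2 (45.4 TPM), ZEB1 (25.9 TPM), SNAI1 (25.7 TPM), ZEB2 (2.43 TPM), CDH2 (0.490 TPM) and CDH1 (0.114 TPM). ZEB1 and SNAI1 overlapped there, whereas in MDA-MB-231 sgNTS libraries SNAI1 (6.10 TPM) stood below ZEB1 (30.1 TPM). With sgYES1, SNAI1 thus overlapped with TWIST1 in SUM159PT and with ZEB1 in MDA-MB-231.

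**Figure D3:**
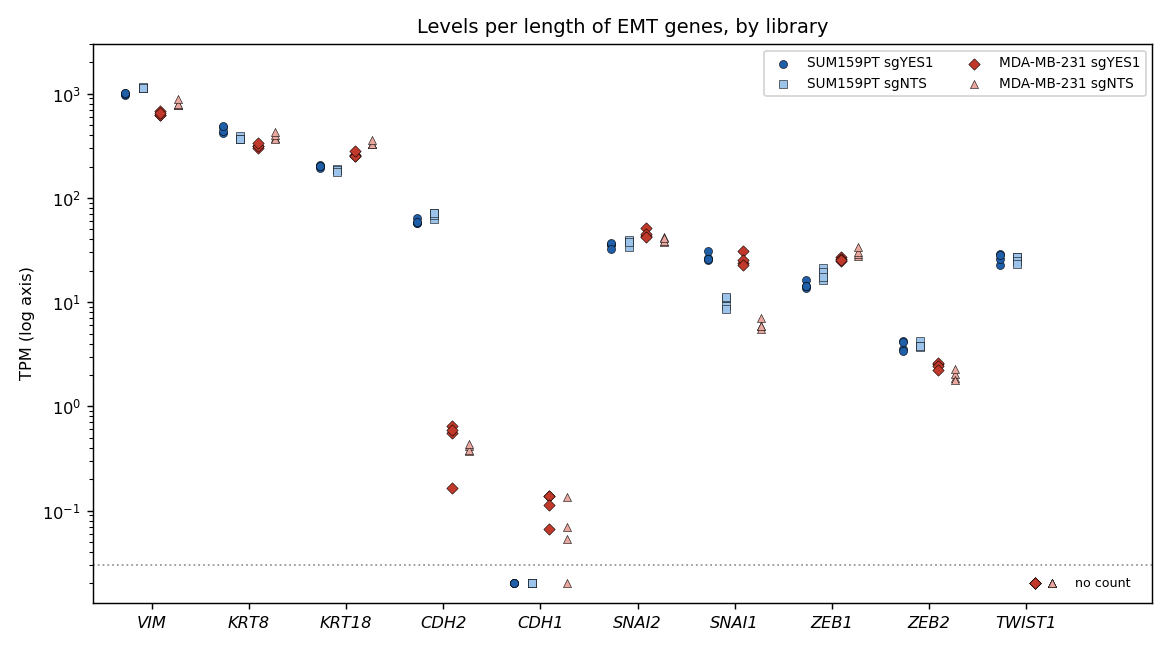
Level per length in TPM (y axis, log scale) of the 10 genes in each library, by group from SUM159PT sgYES1 on the left to MDA-MB-231 sgNTS on the right. Libraries without a count are drawn under the dotted line. The filament genes stand above 180 TPM on average in every group, and TWIST1 and CDH2 separate the lines.

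Most genes differed between the lines without the guide to YES1, and the called share of the set (77.8%) was near that of all genes. Between SUM159PT sgNTS and MDA-MB-231 sgNTS libraries, 7 of 9 tested genes were called, 5 higher and 2 lower in SUM159PT, against 81.8% of 16640 genes (40.5% higher and 41.3% lower). CDH2 averaged 68.8 ± 4.19 TPM in SUM159PT and 0.401 ± 0.0304 TPM in MDA-MB-231 (SD, n = 4 each), a log2 fold change of 7.48 (SE 0.114, adjusted p 6.99e-27, edgeR). TWIST1 had 979 counts over the SUM159PT sgNTS libraries and none in MDA-MB-231 sgNTS libraries, so that it was at least 411-fold higher in SUM159PT (against 3 counts over the group). ZEB2 averaged 3.86 ± 0.233 TPM in SUM159PT and 1.99 ± 0.219 TPM in MDA-MB-231 (log2 fold change 1.03, adjusted p 5.15e-12). VIM averaged 1144 ± 6.24 TPM in SUM159PT and 808 ± 53.8 TPM in MDA-MB-231 (log2 fold change 0.58, adjusted p 7.07e-15). These 4 genes and SNAI1 (log2 fold change 0.78, adjusted p 1.35e-05) were the higher ones in SUM159PT. A wider list of 38 mesenchymal and matrix genes had 17 higher and 17 lower of 35 tested in this comparison (97.1% called, against 81.8% of all genes). The 4 genes therefore do not stand for mesenchymal genes in general.

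ZEB1 and KRT18 were the lower ones in SUM159PT. ZEB1 averaged 18.6 ± 2.19 TPM in SUM159PT and 30.1 ± 2.67 TPM in MDA-MB-231 (log2 fold change -0.62, adjusted p 9.47e-10, edgeR). KRT18 averaged 184 ± 5.53 TPM in SUM159PT and 337 ± 14.5 TPM in MDA-MB-231 (log2 fold change -0.80, adjusted p 1.88e-15). SNAI2 (log2 fold change -0.03, 95% interval -0.16 to 0.10) and KRT8 (log2 fold change 0.00, 95% interval -0.10 to 0.10) did not pass the test. Line and any batch of the line cannot be told apart in this comparison.

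The nearest patterns to that of SNAI1 were sought among 9514 protein-coding genes that averaged 5 CPM or more in each line, by the root mean square (RMS) difference of log2 CPM over the 16 libraries, each taken relative to the sgNTS mean of its line. FOSB, a partner of JUN proteins in AP-1, was the nearest (RMS 0.216, against a median of 1.27 over the candidates). It averaged 11 ± 1.07 CPM with sgYES1 and 4.86 ± 0.326 CPM with sgNTS in SUM159PT, and 9.69 ± 1.17 and 1.85 ± 0.0366 CPM in MDA-MB-231 (SD, n = 4 each). The minimum of 5 CPM was on the mean over both guides, and FOSB met it only through its sgYES1 libraries. ANGPTL4, a secreted inhibitor of lipoprotein lipase, followed (RMS 0.223), with log2 fold changes of 1.62 in SUM159PT and 1.70 in MDA-MB-231. The next were HMOX1, a heme-degrading enzyme (RMS 0.304), ZC3H12A, a ribonuclease that degrades cytokine mRNA (RMS 0.306), and AKR1C1, an aldo-keto reductase (RMS 0.314). The 3 had log2 fold changes of 0.96 to 1.20 in SUM159PT and 1.51 to 1.74 in MDA-MB-231. The genes were chosen for this likeness, so it is a description with no test.

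**Figure D4:**
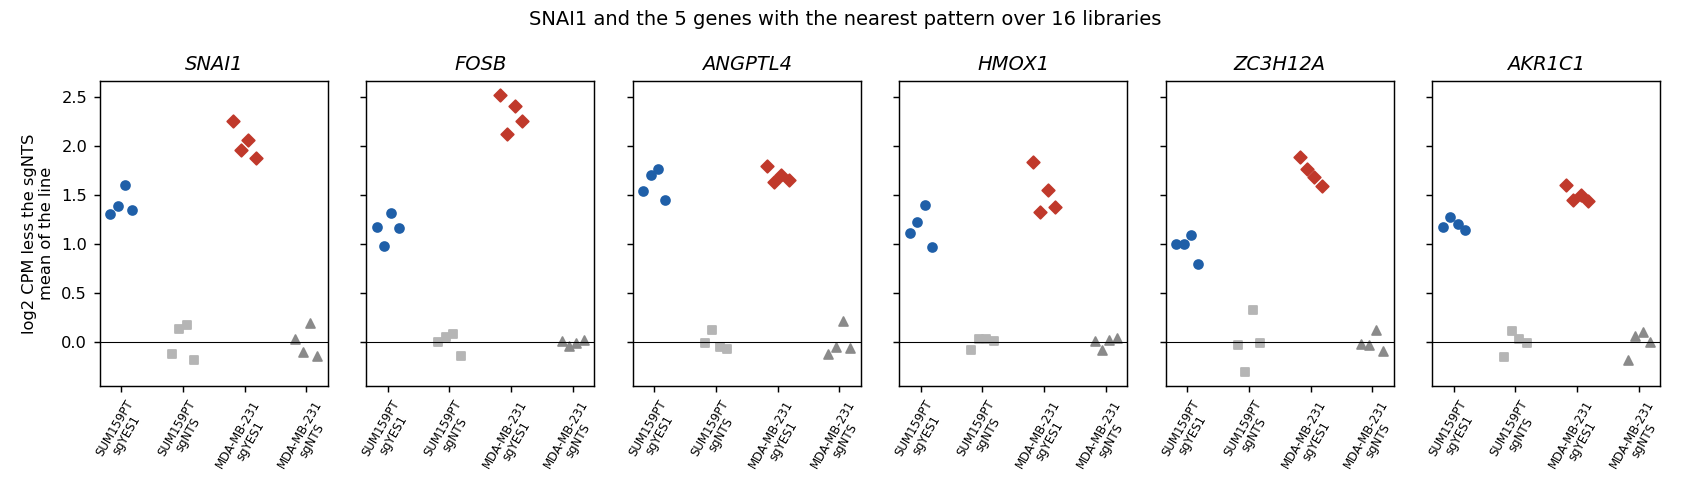
Log2 CPM relative to the sgNTS mean of the line (y axis) for SNAI1 and the 5 genes with the smallest RMS difference from it, by library and group. The sgNTS libraries lie around 0, and for SNAI1, FOSB, ZC3H12A and AKR1C1 the sgYES1 libraries of MDA-MB-231 lie above all of those of SUM159PT.

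Other regulators of the transition, a list of 23, had 6 of 15 tested genes called in SUM159PT (4 higher, 2 lower, median log2 fold change -0.07) and 6 of 12 in MDA-MB-231 (3 higher, 3 lower, median 0.13). These are 40% and 50% of the list, against 39.4% and 42.8% of all genes. ELF3, an epithelial ETS factor, was low in both lines and rose in both. It had 1.22 ± 0.326 CPM with sgYES1 and 0.0528 ± 0.106 CPM with sgNTS in SUM159PT (88 and 3 counts in all). There it passed the filter on low counts only through the sgYES1 libraries, so only a rise could be called. It is among the 4 higher genes counted above, and its p in SUM159PT supports nothing further. For MDA-MB-231 the values were 3.32 ± 0.204 CPM with sgYES1 and 1.41 ± 0.259 CPM with sgNTS (log2 fold change 1.24, adjusted p 2.99e-05, edgeR). SOX9, a factor of progenitor cells, had 1.64 ± 0.244 CPM with sgYES1 and 0.700 ± 0.340 CPM with sgNTS in SUM159PT (119 and 49 counts in all). SOX9 also passed the filter there only through the sgYES1 libraries, where it was higher. It is likewise among the 4 higher genes, and its p in SUM159PT supports nothing further. It fell in MDA-MB-231 to 115 ± 4.96 CPM with sgYES1, against 172 ± 2.77 CPM with sgNTS (adjusted p 4.71e-08). The difference of its guide effects was 1.71 (adjusted p 6.14e-06, edgeR). KLF4, a zinc-finger factor of epithelial differentiation, rose in MDA-MB-231 (log2 fold change 0.52, adjusted p 1.73e-06) and had a log2 fold change of -0.12 in SUM159PT (adjusted p 0.295).

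Of 38 epithelial junction and polarity genes, 14 passed the filter on low counts in SUM159PT and 32 in MDA-MB-231. In SUM159PT 2 were higher and 3 lower (median log2 fold change -0.14), and in MDA-MB-231 6 were higher and 13 lower (median -0.18). The called share was 35.7% in SUM159PT and 59.4% in MDA-MB-231, against 39.4% and 42.8% of all genes. Among the higher genes, ESRP2 in SUM159PT (81 counts with sgYES1, 36 with sgNTS) passed the filter only through its sgYES1 libraries. The same held for ESRP1 in MDA-MB-231 (55 and 18 counts). For these genes only a rise could be called. CLDN1, a claudin of tight junctions, rose in both lines, with 13.7 ± 1.21 CPM with sgYES1 and 9.53 ± 3.11 CPM with sgNTS in SUM159PT (adjusted p 0.00534). In MDA-MB-231 it had 9.39 ± 0.698 CPM with sgYES1 and 3.06 ± 0.491 CPM with sgNTS (log2 fold change 1.604, adjusted p 1.63e-07, edgeR). PKP2, a desmosomal plaque protein, fell in MDA-MB-231 (log2 fold change -0.58, adjusted p 3.1e-06), as did SPINT2, an inhibitor of membrane serine proteases (log2 fold change -0.40, adjusted p 5.31e-06). DSG2, a desmosomal cadherin, fell in both lines (log2 fold change -0.21, adjusted p 0.000539 in SUM159PT and -0.41, adjusted p 3.76e-05 in MDA-MB-231, edgeR).

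Among 16 catenins and other adhesion genes, 2 were higher and 5 lower of 12 tested in SUM159PT (median log2 fold change -0.05), and 1 was higher and 4 lower of 12 in MDA-MB-231 (median -0.06). The called share was 58.3% and 41.7%, against 39.4% and 42.8% of all genes. The 12 tested in SUM159PT include PCDH1, with 72 counts with sgYES1 and 21 with sgNTS. PCDH1 passed the filter on low counts there only through the sgYES1 libraries, so only a rise could be called. CDH6 fell in SUM159PT to 10.3 ± 2.08 CPM with sgYES1, against 19.7 ± 2.45 CPM with sgNTS (log2 fold change -0.93, adjusted p 2.86e-06). CDH4 fell in MDA-MB-231 to 102 ± 3.48 CPM with sgYES1, against 143 ± 9.35 CPM with sgNTS (log2 fold change -0.48, adjusted p 1.86e-06, edgeR). Per length, CDH4 averaged 50.1 TPM with sgYES1 and 70.4 TPM with sgNTS in MDA-MB-231, where CDH2 stayed under 1 TPM. JUP, the plakoglobin gene, rose there (log2 fold change 0.23, adjusted p 0.00317).

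The other keratins and intermediate filament genes, 21 in number, gave 2 higher and 2 lower of 11 tested in SUM159PT (median log2 fold change 0.07) and 2 higher and 7 lower of 13 in MDA-MB-231 (median -0.11). That is 36.4% and 69.2% called, against 39.4% and 42.8% of all genes. KRT6A rose in SUM159PT to 4.33 ± 1.22 CPM with sgYES1, against 1.04 ± 0.198 CPM with sgNTS (adjusted p 7.02e-07), and had no count in MDA-MB-231. KRT81, a hair keratin, rose in MDA-MB-231 to 107 ± 3.89 CPM with sgYES1, against 69.0 ± 3.14 CPM with sgNTS (adjusted p 8.01e-08). The fall of KRT8 and KRT18 in MDA-MB-231 was therefore not shared by every keratin. LMNB1, a nuclear lamin, fell in MDA-MB-231 (log2 fold change -0.50, adjusted p 6.93e-07, edgeR), and so did NES, the nestin gene (log2 fold change -0.50, adjusted p 1.47e-05).

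Mesenchymal and matrix genes, 38 in the list, gave 9 higher and 8 lower of 32 tested in SUM159PT (median log2 fold change -0.02, or 0.0039 with library totals as the only scaling) and 7 higher and 11 lower of 29 in MDA-MB-231 (median -0.08). That is 53.1% and 62.1% called, against 39.4% and 42.8% of all genes. AXL, a receptor tyrosine kinase common in mesenchymal tumour cells, fell in SUM159PT to 281 ± 13.1 CPM with sgYES1, against 436 ± 10.2 CPM with sgNTS (log2 fold change -0.63, adjusted p 1.46e-10). It fell in MDA-MB-231 to 1332 ± 20.8 CPM with sgYES1, against 1760 ± 65.0 CPM with sgNTS (log2 fold change -0.40, adjusted p 5.13e-07, edgeR). LOXL2, a collagen-crosslinking oxidase, fell in both lines (log2 fold change -0.61, adjusted p 2.24e-09 in SUM159PT and -0.36, adjusted p 1.71e-06 in MDA-MB-231, edgeR). MMP14, a membrane-bound matrix protease, rose in MDA-MB-231 (log2 fold change 0.38, adjusted p 5.47e-07, edgeR).

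Genes whose proteins act with SNAI1 or control its stability, 28 of 29 symbols found, gave 3 higher and 8 lower of 28 tested in SUM159PT (median log2 fold change -0.03), where the called share of 39.3% was at the 39.4% of all genes. In MDA-MB-231 0 were higher and 14 lower of 27 (median -0.12, edgeR), where the share of lower genes over all tested was 22.1%. At an unadjusted p under 0.05, 2 were higher and 15 lower, and with DESeq2 1 was higher and 13 lower. Without MDA-MB-231 sgNTS replicate 4, 4 were higher and 12 lower, and with library totals as the only scaling 2 were higher and 11 lower. DNMT1, the maintenance DNA methyltransferase, fell in MDA-MB-231 (log2 fold change -0.35, adjusted p 1.46e-06), as did EZH2, the Polycomb histone methyltransferase (log2 fold change -0.36, adjusted p 2.63e-05, and -0.18, adjusted p 0.0135 in SUM159PT), and KDM1A, a histone demethylase (log2 fold change -0.25, adjusted p 8.38e-05, edgeR). FBXL5, an F-box protein, fell in both lines (log2 fold change -0.32, adjusted p 0.000172 in SUM159PT and -0.12, adjusted p 0.0365 in MDA-MB-231). FBXL14, another F-box protein, rose in SUM159PT (log2 fold change 0.40, adjusted p 0.000308). Levels of SNAI1 protein were not measured.

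**Figure D5:**
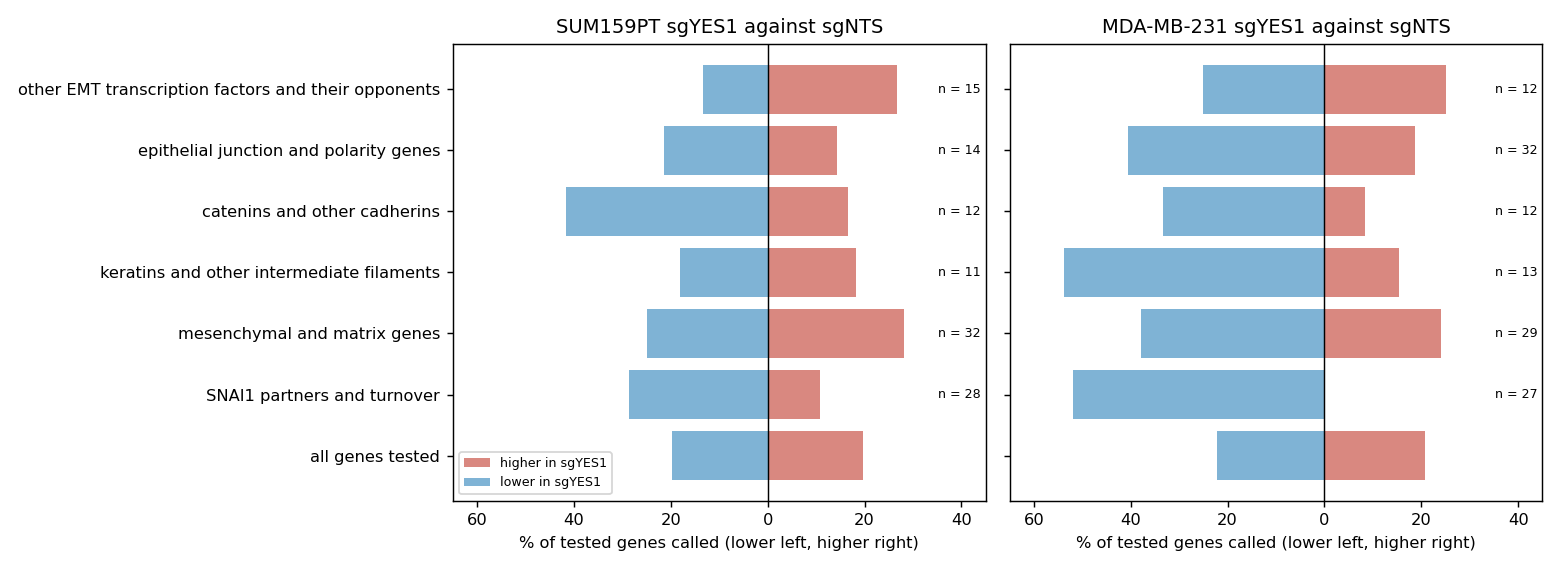
Percent of tested genes called lower (left of 0, blue) and higher (right of 0, red) with sgYES1 for 6 lists and for all genes tested, in SUM159PT (left panel) and MDA-MB-231 (right panel). The number tested stands beside the bars of each list. In MDA-MB-231 the genes that act with SNAI1 show 14 lower and 0 higher calls of 27, against 12 and 4 without sgNTS replicate 4.

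Markers of other cell types were low for leukocytes and endothelial cells and higher for fibroblasts and luminal breast cells, and some moved with the guide. CPM in this paragraph is scaled by library totals alone. COL1A1 was the top fibroblast marker in every group, and the top luminal marker was XBP1 in SUM159PT (119 CPM with sgYES1, 180 CPM with sgNTS) and KRT19 in MDA-MB-231 (241 CPM with sgYES1, 285 CPM with sgNTS). The 13 leukocyte markers summed to 1.95 to 2.84 CPM with sgYES1 and 0.627 to 1.34 CPM with sgNTS in SUM159PT, and to 12.4 to 13.9 and 8.95 to 10.2 CPM in MDA-MB-231, with CD3E, MS4A1 and FCGR3A at 0 in every group. The 8 endothelial markers summed to 25.1 to 27.6 CPM with sgYES1 and 20.3 to 21.9 CPM with sgNTS in SUM159PT, and to 8.02 to 10.9 and 4.60 to 5.92 CPM in MDA-MB-231. The 8 fibroblast markers, which share DCN, LUM, COL1A1, COL3A1 and FAP with the mesenchymal list, summed to 64.3 to 82.8 CPM with sgYES1 and 62.3 to 67.7 CPM with sgNTS in SUM159PT, and to 23.8 to 29.4 and 18.1 to 23.2 CPM in MDA-MB-231, with DPT at 0 in every group. The 9 luminal markers summed to 128 to 140 CPM with sgYES1 and 153 to 218 CPM with sgNTS in SUM159PT, and to 349 to 400 and 384 to 403 CPM in MDA-MB-231. No leukocyte marker passed the filter in SUM159PT, and 3 of 3 tested rose in MDA-MB-231. ITGAM, among these 3, had 91 counts over the sgYES1 libraries and 25 over the sgNTS libraries. It passed the filter only through the group where it was higher. LYZ, with 7 counts with sgYES1 and 38 with sgNTS in MDA-MB-231, did not pass. Of the endothelial markers 1 of 3 rose in SUM159PT and 2 of 2 in MDA-MB-231. Of the fibroblast markers 3 of 4 rose in SUM159PT, and in MDA-MB-231 1 of 3 rose and 1 fell. Of the luminal markers 1 of 3 rose and 1 fell in SUM159PT, and 1 of 5 rose and 1 fell in MDA-MB-231. Over all genes, 19.6% were higher and 19.7% lower in SUM159PT, and 20.8% and 22.1% in MDA-MB-231. The part of these markers in the results above was not tested.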

How the data were processed

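The tools named per the submitters' processing notes are HISAT2 2.0.5, an aligner, and featureCounts 1.5.0-p3, a read counter, and the genome build named is hg38. The authors deposited raw counts per gene, 1 table per line, with no normalization, for 58735 genes, of which 58724 match GENCODE 29 in start, end and exon length. How strand and multiply matching reads were counted is not stated there. Counts were tested with edgeR 4.0.16 (R 4.3.3): TMM scaling, filterByExpr (smallest count 10, total 15), quasi-likelihood F-test, two-sided, Benjamini-Hochberg adjustment over all genes tested. Each line was fitted on its 8 libraries with guide as the only term. The difference of guide effects and the comparison of sgNTS libraries between lines used all 16. TPM was computed from counts and the exon length in the tables. Log2 CPM used a prior count of 2. CDH1 was tested by exact permutation. Pairs of libraries within groups differed by more than counting noise (chi-square per degree of freedom 2.33 to 29.1), so none was taken for a copy of another. This does not show that they are separate cultures. Intervals and limits of detection cover what their models hold, with counting error alone for limits. Promoters came from RefSeq.

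The genes and lists were chosen with earlier results of these data known. Up to 4 genes per list and line, those with the smallest p among the called, were eligible to be named, along with the 10 genes, YES1 and the 5 genes nearest to SNAI1. Antisense genes and pseudogenes of the 10 are named where the tables hold them. PGR, ESR1, LYZ and other markers of cell types are named outside this rule. ESRP1, ESRP2 and PCDH1 are named because of the filter on low counts. Alternatives were DESeq2 1.42.0, its size factors, library totals, no filter, a replicate block, each library left out, the 8 sgNTS libraries alone, a prior count of 0.5 and TMM-scaled levels per length. The counts of the lists were also recomputed with the other scalings, with DESeq2 and without MDA-MB-231 sgNTS replicate 4, a choice made after seeing the data. The code was tested on simulated data. The values of 1 gene of the mesenchymal list are not reported here.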

Additional observations from a re-analysis of the deposited data

Results flagged for a closer look

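In 3 of the 36 groups of 4 libraries tested for a library apart from the rest, Dixon's ratio of gap to range exceeded 0.829. Chance alone gives about 1 in 20 groups. CDH2 in MDA-MB-231 sgYES1 had a ratio of 0.886, with replicate 2 at 0.231 CPM and the others at 0.778 to 0.849 CPM. KRT8 in SUM159PT sgNTS had a ratio of 0.962, with replicate 2 at 769 CPM and the others at 714 to 716 CPM. KRT8 in MDA-MB-231 sgNTS had a ratio of 0.949, with replicate 2 at 715 CPM and the others at 757 to 759 CPM.

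The guide effect differed between the lines, by the test of the difference itself (edgeR, SUM159PT minus MDA-MB-231, log2), in 5 of 8 genes tested. Over all 16640 genes tested the share was 24.5%. The difference was -0.65 for SNAI1, -0.30 for SNAI2 and -0.33 for ZEB2, all toward a higher value in MDA-MB-231. The SNAI2 call was lost under 3 of 21 alternatives and the ZEB2 call under 9 of 21. It was 0.56 for KRT8 and 0.46 for KRT18, whose effects had opposite signs in the lines.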

How the results depend on the processing

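Counts of calls over all genes stayed within 1.5 times under every alternative run. Leaving out each library in turn gave 4880 to 5654 calls in SUM159PT, 5778 to 6582 in MDA-MB-231, 3706 to 4365 for the difference of guide effects and 13430 to 13850 between the sgNTS libraries. Among the 10 genes it gave 5 to 6, 6 to 7, 4 to 6 and 6 calls (TWIST1 not counted in the last). The log2 fold changes of 2 genes that had not passed the test changed sign. ZEB2 in SUM159PT ranged from -0.084 to 0.03 (0.0067, 0.0055 and 0.030 without sgNTS replicate 1, sgYES1 replicate 2 or sgYES1 replicate 4). TWIST1 in SUM159PT ranged from -0.0063 to 0.11 (-0.0063, -0.0040 and -0.00065 without sgNTS replicate 4, sgYES1 replicate 2 or sgYES1 replicate 4). The cause was not tested. SNAI1, ZEB1, VIM and KRT8 kept their direction and call in both lines under all 13 alternatives of each.

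Same-numbered libraries did not deviate together (correlations -0.106 to 0.0486), so no pairing by number was seen. This cannot show that same-numbered libraries were handled apart. With the replicate block there were 5886 calls in SUM159PT, 5901 in MDA-MB-231, 3817 for the difference and 13550 between the lines, and the 10 genes kept the same number of calls, 6, 7, 5 and 6. Depth limits CDH1 in both lines and CDH2 in MDA-MB-231, at fewer than 1 CPM.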
